A study of Rattus norvegicus with 6 samples.

Results

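The sequences described here are long small-RNA reads that end in the bases CCA. They were selected on length, last bases and abundance: a distinct read sequence, called a tag, was a member if it had 26 to 30 nt, ended in CCA and had at least 30 reads summed over the 6 libraries. Of 1528721 tags in the series, 11502 had that length and end, and 496 of these reached the minimum (4.31%). Members that share their last 18 bases were summed, which gave 91 end groups with 228273 reads. The groups are numbered E1 to E91 in falling order of their mean level over the libraries. CCA-ended long reads were taken up because their total was already known to be higher in NAFLD, so the direction of that total is no result here and all group ratios are descriptions.

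The libraries were made from liver RNA of 6 male Wistar rats, 1 library per rat, aged 4 months by the sample labels and older by the study's methods. The 3 NAFLD rats were fasted and then fed a high-starch diet for a week, and their livers were taken from those with the higher hepatic triglycerides. The 3 normal rats received standard diet and their livers were picked at random. The animals carried no stated transgene and no other treatment is stated. Nothing in the labels ties a NAFLD rat to a normal rat, and p-values measure the spread between these libraries. The libraries held 11601058 to 11880695 clean reads. Levels are given as TPM, the reads of a tag or group per 1000000 clean reads of its library. Reads were amplified and carry no molecular identifiers, so intervals cover counting error only. rno-miR-192-5p, a miRNA abundant in liver, reached at least 11116 TPM in every library, while the muscle miRNA rno-miR-133a-3p reached at most 0.0846 TPM. In bulk liver RNA, fewer cells of a type and less RNA per cell cannot be told apart.

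The libraries differed in a way that their labels do not give. At base 4 of the most abundant tag of the series, 1.39 to 1.63% of reads carried a substitution in NAFLD replicates 2 and 3 and normal replicate 2, against 0.0231 to 0.0260% in NAFLD replicate 1 and normal replicates 1 and 3. Both sets hold both conditions, and for the member total and the most abundant groups the ratios within each set are given below beside the pooled ones. Some member ends followed this division. Of the 91 ends, 26 were 1 substitution from an end at least 5 times as abundant, and 7 of these read C for an A. Those 7 ends together had 1395 and 2018 reads in NAFLD replicates 2 and 3 and 336 in normal replicate 2, but 3 in NAFLD replicate 1 and 0 in normal replicates 1 and 3. Some tags inside larger groups followed it too. A tag of E1 with 5751 reads had 201 and 249 TPM in NAFLD replicates 2 and 3 and 36.98 TPM in normal replicate 2. It had 0 in the other libraries. Counts of member tags, in all and per group, include such tags. A count of 0 allows up to 3 reads, or 0.253 TPM in these libraries.

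Mature tRNAs end in CCA, which a nucleotidyltransferase adds after transcription and to which the amino acid is attached. Fragments cut within the T arm, the stem and loop nearest the 3′ end, carry the T loop, the 3′ strand of the acceptor stem and CCA. The T loop holds an adenosine that is methylated at N1 in many tRNAs, and reverse transcriptases often stop there or insert another base. CCA can also be part of the encoded sequence of other RNAs, so the end alone does not make a read a tRNA fragment.

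The 12 end groups with the highest mean level are shown by their most abundant tag, since they hold 85.9% of the member reads. The last 3 bases are in capitals, and so is the 19th base counted from 1 at the 3′ end, which lies just before the 18 shared bases and varies within a group.
E1: agggttcaGgtccctgttcgggcgCCA
E2: gtgggttcgTgccccacgttgggcgCCA
E3: gtggttcgTgcccacccagggacgCCA
E4: tgggttcgTatcccatcctcgtcgCCA
E5: ctggttcgTttccggctcgaaggaCCA
E6: gagttcaTatctcggtgggacctCCA
E7: gtgttcaGgtcacgtcggggtcaCCA
E8: agccgacTtagaactggtgcggaCCA
E9: cgggttcgActcccggtgtgggaaCCA
E10: gtgggttcgTgccccccgttgggcgCCA
E11: tcggttcgTatccgagtcacggcaCCA
E12: cgggttcgTttcccggtcagggaaCCA
Between them the 12 groups held 238 member tags. E1 alone had 83 tags, 121375 reads and 53.2% of the member reads, and its most abundant tag made up 27.01% of the group. E10 is the end of E2 with A6C, with positions counted from the first of the 18 bases, and is one of the ends with a C for an A described above. The 3 further groups with the smallest unadjusted p are also named.
E63: gtgggttCcccccacgttgggcgCCA
E34: cggttcgTaaccgggcggaaacaCCA
E43: cgggttcgTttcccggccaatgcaCCA
E63 was a single tag whose 18 bases are those of E2 with G1C, while E34 and E43 had no end 1 substitution away that was at least 5 times as abundant.

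Most members had the layout of a tRNA from the T arm to the 3′ end. A T-arm pattern was defined after the tags had been seen: T and C at bases 22 and 21 from the 3′ end, and at least 2 of 3 possible pairs between bases 24 and 16, 25 and 15, and 26 and 14, with G and T allowed to pair. Of the 496 members, 404 (81.5%) carried it, against 1.91% of 3674 tags of the same lengths and minimum that end in other bases. The T-loop motif GTTCNANNC, searched on the strand as read, was in 79 members (15.9%) and in 0.109% of the tags with other ends. With the fixed A opened to any base, GTTCNNNNC was in 379 members (76.4%) and in 2.10% of the tags with other ends. The difference between the 2 motifs is the base in capitals in the tags above, which is A in 1 of the 12. Median GC content was 62.96% in the members and 57.7% in the tags with other ends. By the most abundant tag of each group, 61 groups with 93.8% of the member reads had the pattern, and 30 groups with 6.24% did not. Among the 12 most abundant groups, E8 was the one without it.

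Only a few of the ends could be given a tRNA name. The 15 bases before CCA were looked for in RefSeq windows around gene starts of the rat build GRCr8, and a name was given where they matched exactly at the last base of a tRNA gene. Of 766 tRNA genes listed, 8 had an end inside such a window, so most tRNA genes were not searched and an end without a name may still have one. In this way 5 groups were matched. E3 ended like Trnan-guu8 at chr7:10110733-10110806 on the minus strand, an asparagine tRNA gene. E13 ended like Trnaw-cca1 at chr7:27565564-27565635 on the minus strand, a tryptophan tRNA gene, and E43 like Trnag-gcc2 at chr10:54322802-54322872 on the minus strand, a glycine tRNA gene. E75 ended like Trnat-agu1 at chr1:97019967-97020040 on the minus strand, a threonine tRNA gene, and E78 like Trnal-aag1 at chr1:184897149-184897230 on the plus strand, a leucine tRNA gene. Other gene copies with the same end could not be looked up, so a match names the end and not the source gene. The most abundant tags of the matched groups not yet shown are these.
E13: gtgttcaTatcacgtcggggtcaCCA
E75: tgggttcgTatcccagcggtgcctCCA
E78: tgggttcgTatcccaccgctgccaCCA
The genes continue upstream of the match, and there each tag could be set against its gene. With the gene base first and positions counted from 1 at the 3′ end, CCA included, E3, E43, E75 and E78 each differed from the gene by A19T alone over 16 to 24 bases. E13 differed by G20A and A19T over 23 bases. A19T was thus shared by all 5.

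Base 19 was read as A in a minority of the member reads with the T-arm pattern. A made up 10.96, 10.4 and 9.93% of them in NAFLD and 14.4, 10.3 and 14.2% in normal replicates 1 to 3. The widest counting interval was that of normal replicate 1, from 12.7 to 16.3% (95% Wilson interval). For A the conditions overlapped, with normal replicate 2 inside the NAFLD range. G was the most frequent base, at 49.7 ± 0.571% in the NAFLD and 45.1 ± 1.64% in the normal libraries (SD, n = 3 each), and T followed at 38.2 ± 0.567% and 40.4 ± 0.292%. For G and T the conditions did not overlap. G was at least 49.1% in the NAFLD and at most 47.0% in the normal libraries. T was at most 38.6% in the NAFLD and at least 40.2% in the normal libraries, and no test of either is given. C made up at most 2.35% in any library. Summed over the groups, the base read differed with the base before it. After an A at base 20, as in E1, E6 and E7, G made up 63.2 ± 1.14% in the NAFLD and 59.7 ± 1.32% in the normal libraries and T 27.4 ± 0.797% and 28.2 ± 0.895%. After a G, as in E2 to E5, the order turned, with T at 56.8 ± 1.13% and 58.2 ± 1.46% and G at 26.5 ± 1.11% and 23.9 ± 1.96% (SD, n = 3 each). All 6 libraries showed both pooled orders. E1, in which G made up 64.2% of all reads, held most of the reads after an A. Single groups differed widely. In E5, T made up 90.2% of the reads, in E7 G made up 72.6%, and in E9 and E28 A made up 93.9% and 94.3%. E6 departed from the pooled order after A, with T at 48.7% above G at 33.4%. So did E13, E42 and E50, where the 26 nt tags after A had 525, 155 and 118 reads with T and 362, 107 and 65 with G. After a G, the order was reversed in some groups. The 27 nt tags of E23 had 286 reads with G and 82 with T, and the 26 nt tags of E55 had 93 and 33.

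All 12 abundant groups had a higher mean level in the NAFLD than in the normal libraries, and so had every other end group. The members together reached 8146, 4472 and 5400.0 TPM in NAFLD replicates 1 to 3 and 202, 1017 and 246 TPM in normal replicates 1 to 3. Normal replicate 2 stood above the other normal libraries but below each NAFLD library. The ratio of means was 12.3, within the set with more substitutions it was 4.85 and within the other set 36.3. Without normal replicate 2 it was 26.8. This total is the value the sequences were taken up for. Without E1 the ratio was 8.59, so the largest group did not carry the difference alone. Reads of 26 to 30 nt with other ends were also higher in the NAFLD libraries, at 24992, 22889 and 26659 TPM against 6007, 14130.5 and 6034 TPM, a ratio of 2.85. The part of this shift in the group ratios was not tested.

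Group by group, the lowest NAFLD library lay above the highest normal library in 70 of the 91 groups. Over all 19287 tags and group sums of the series that entered the fit, the same held for 18.3%. Of the 72 groups among these it held for 61, while counts out of 91 include groups too rare to enter the fit. Scaled to the reads of 26 to 30 nt in place of all clean reads, it held for 43 of 91 groups, against 2.3% of the whole table, and with the trimmed-mean (TMM) factors of edgeR for 46, against 7.03%. With ends 1 substitution from an end at least 5 times as abundant added to it, it held for 52 of 65 groups, and no share of the whole table was taken for this. Within the set with more substitutions (2 NAFLD libraries and 1 normal) NAFLD lay above normal in 85 groups, against 75.8% of the whole table, and within the other set (1 NAFLD library and 2 normal) in 83, against 58.9%. The median log2 ratio of all 91 groups, on the log2(TPM + 1) scale, was 1.64, against 0.56 over the tags and sums that entered the fit. In the normal libraries together, 2 groups had 0 reads and 7 had 1 to 3, and for these no ratio of TPM is given.

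In the quasi-likelihood test of edgeR, scaled by the clean reads alone, 72 of the 91 groups passed the filter on low counts, which a group can pass through the NAFLD libraries alone. After Benjamini-Hochberg adjustment over all 19287 tags and sums, 0 groups had a p under 0.05, against 0% of the whole table, and the smallest adjusted p of a group was 0.537. DESeq2 and limma on log2(TPM + 1) also gave 0 and 0 groups, against 6 and 0 of all 19287 tags and sums. At an unadjusted p under 0.05, 52 groups were higher in NAFLD and 0 lower, against 8.95% of the whole table higher. Without normal replicate 3 the former count was 33 of 85, against 3.05% of the table fitted there, and with TMM factors 18 of 72, against 2.27%. The fitted log2 fold changes rest on the scaling: the median over all tags and sums was 0.89 by clean reads and 0.23 with TMM factors, a shift of 0.66. Fold changes below are therefore also given relative to the first of these medians. Of the 72 groups, 3 (E49, E59 and E81, all without the T-arm pattern) lay below it, and with TMM factors E59 had a negative fold change of -0.31.

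E1 had 4539, 2395 and 2915 TPM in NAFLD replicates 1 to 3 and 51.5, 401 and 62.5 TPM in normal replicates 1 to 3. The 3 NAFLD libraries were far above the normal ones, among which replicate 2 stood out. The log2 fold change of edgeR was 4.26 (standard error 0.95), 3.37 above the median of all tags and sums, with an unadjusted p of 0.00398 and an adjusted p of 0.537. The ratio of means was 19.1, with 6.62 within the set with more substitutions and 79.6 within the other. Normal replicate 2 is the only normal library of the former set. E2 had 644, 393 and 626 TPM in NAFLD replicates 1 to 3 and 11.1, 62.7 and 10.4 TPM in normal replicates 1 to 3. The conditions did not overlap and the log2 fold change was 4.30 (standard error 0.88), 3.41 above the median of all tags and sums (edgeR, adjusted p 0.537). The ratio was 19.8, with 8.13 within the set with more substitutions and 59.9 within the other. E3, with the asparagine tRNA end, had 553, 129 and 163 TPM in NAFLD replicates 1 to 3 and 4.13, 57.96 and 11.4 TPM in normal replicates 1 to 3. NAFLD replicate 1 was several times higher than the other NAFLD libraries, and the lowest NAFLD library was 2.22 times normal replicate 2. Its log2 fold change was 3.52 (standard error 1.17), 2.63 above the median of all tags and sums (edgeR, adjusted p 0.537). It was 2.57 without NAFLD replicate 1 and 5.18 without normal replicate 2. The ratio of 11.5 was likewise uneven, with 2.52 within the set with more substitutions and 71.3 within the other.

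E4 had 434, 178 and 259 TPM in NAFLD replicates 1 to 3 and 7.42, 20.8 and 4.55 TPM in normal replicates 1 to 3. No normal library came near the lowest NAFLD library, and the ratio, 26.6, was the largest among the 12, with 10.5 within the set with more substitutions and 72.5 within the other. The log2 fold change was 4.73 (standard error 0.77), 3.84 above the median of all tags and sums, with the smallest unadjusted p of any group at 0.000786 and an adjusted p of 0.537 in edgeR. E5 had 266, 217 and 247 TPM in NAFLD replicates 1 to 3 and 5.65, 39.3 and 10.6 TPM in normal replicates 1 to 3, with the NAFLD libraries closer together than in the groups before. The ratio was 13.2, with 5.91 within the set with more substitutions and 32.7 within the other. E6 and E7, both with A at base 20 and mostly 26 nt long, had lower ratios. E6 had 171, 126 and 86.4 TPM in NAFLD replicates 1 to 3 and 5.74, 42.4 and 12.04 TPM in normal replicates 1 to 3, a ratio of 6.37. E7 had 102, 142 and 96.1 TPM in NAFLD replicates 1 to 3 and 8.10, 49.5 and 16.1 TPM in normal replicates 1 to 3, a ratio of 4.61. In both, replicate 2 was the highest normal library, and the lowest NAFLD library was 2.04 and 1.94 times as high. Within the set with more substitutions the ratios of E6 and E7 were 2.50 and 2.40, and within the other 19.3 and 8.46.

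E8, the abundant group without the T-arm pattern, differed least. It had 89.99, 97.97 and 64.2 TPM in NAFLD replicates 1 to 3 and 35.3, 53.8 and 26.1 TPM in normal replicates 1 to 3. The conditions did not overlap, but the ratio was 2.19, with 1.51 within the set with more substitutions and 2.93 within the other. Its log2 fold change of 1.13 (standard error 0.41) was 0.24 above the median of all tags and sums (edgeR, adjusted p 0.541). E9, in which base 19 was read as A, had 108, 51.96 and 81.1 TPM in NAFLD replicates 1 to 3 and 1.18, 13.9 and 1.60 TPM in normal replicates 1 to 3. E10 had 0.172, 66.7 and 111 TPM in NAFLD replicates 1 to 3 and 0, 11.9 and 0 TPM in normal replicates 1 to 3. E9 did not overlap and had a ratio of 14.4, while E10 was read in the 3 libraries with more substitutions and had 2, 0 and 0 reads in the others, so that its conditions overlapped. E11 had 97.8, 35.97 and 31.4 TPM in NAFLD replicates 1 to 3 and 1.01, 10.9 and 2.36 TPM in normal replicates 1 to 3. E12 had 76.8, 40.8 and 43.2 TPM in NAFLD replicates 1 to 3 and 1.01, 8.85 and 0.505 TPM in normal replicates 1 to 3. Both were highest in NAFLD replicate 1, and their ratios were 11.6 and 15.5. Within the set with more substitutions the ratios of E9, E11 and E12 were 4.79, 3.10 and 4.75, and within the other 77.6, 58.1 and 101. Among E9, E11 and E12 the edgeR log2 fold changes were 3.85, 3.53 and 3.95, which is 2.96, 2.64 and 3.06 above the median of all tags and sums, with adjusted p of 0.537 for each. The size of most of these values rested on normal replicate 2. Without it the edgeR log2 fold changes of E1, E2 and E4 to E7 were 5.85, 5.69, 5.60, 4.90, 3.84 and 3.23, and those of E9, E11 and E12 were 5.84, 5.02 and 6.12, each a shift of more than 1.5 times in fold. E8 had 1.45 without it, and E11 had 2.82 without NAFLD replicate 1. Without normal replicate 2, E10 had 0 normal reads, and without NAFLD replicate 3 its value was 3.07 in place of 3.90.

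Of the 3 groups named for their small unadjusted p, E63 had 2.67, 1.28 and 4.23 TPM in NAFLD replicates 1 to 3 and 0.169, 0.168 and 0.253 TPM in normal replicates 1 to 3. It does not carry the T-arm pattern, and its normal values rest on 2, 2 and 3 reads. E34 had 22.2, 9.18 and 12.6 TPM in NAFLD replicates 1 to 3 and 0.506, 1.77 and 0.253 TPM in normal replicates 1 to 3. E43, with the glycine tRNA end, had 7.93, 7.14 and 9.06 TPM in NAFLD replicates 1 to 3 and 0.675, 1.68 and 0.253 TPM in normal replicates 1 to 3. None of the 3 overlapped between conditions, against 18.3% of all tags and sums in the fit. Their choice by small p favours this. The log2 fold changes of E34 and E43 were 5.23 and 4.09 without normal replicate 2 in place of 4.10 and 3.19. The unadjusted p of E63, E34 and E43 were 0.00156, 0.00368 and 0.00584 with an adjusted p of 0.537 in edgeR for each. E13, with the tryptophan tRNA end, shares its last 17 bases with E7 and had 41.9, 52.6 and 44.02 TPM in NAFLD replicates 1 to 3 and 3.46, 20.2 and 7.07 TPM in normal replicates 1 to 3, a ratio of 4.50 beside 4.61 for E7. The threonine and leucine ends were rare. E75 had 1.98, 1.02 and 2.29 TPM in NAFLD replicates 1 to 3 and 0.0844, 0.421 and 0 TPM in normal replicates 1 to 3. E78 had 1.55, 1.36 and 1.02 TPM in NAFLD replicates 1 to 3 and 0.0844, 0.758 and 0.168 TPM in normal replicates 1 to 3. NAFLD lay above normal in every library in both, against 18.3% of all tags and sums in the fit, with ratios of 10.5 and 3.89. Each was a single tag, with 68 and 58 reads in all, so these ratios rest on few normal reads. Thus the 5 ends with a tRNA name spanned ratios from 3.89, in the rare E78, to 11.5 in E3.

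The groups with and without the T-arm pattern differed in level and in ratio. The 61 T-arm groups together had 7709, 4225 and 5169 TPM in the NAFLD and 122, 877 and 169 TPM in the normal libraries, a ratio of 14.6. The 30 other groups had 437, 247 and 231 TPM and 79.97, 139.9 and 77.6 TPM, a ratio of 3.08. Without normal replicate 2 the former ratio was 39.2. Within the set with more substitutions the 2 ratios were 5.36 and 1.71, and within the other set 53.03 and 5.54. The log2 ratio of T-arm to other reads, taken inside each library, was 4.14, 4.10 and 4.48 in the NAFLD and 0.61, 2.65 and 1.12 in the normal libraries, without overlap. No test is given, because the pattern was defined after the values were known. The median ratio of single groups was 9.24 over the 53 T-arm groups with more than 3 normal reads and 2.99 over 29 other groups. Without ends 1 substitution from an end at least 5 times as abundant, it was 7.80 over 39 T-arm and 2.47 over 22 other groups. NAFLD lay above normal in every library in 55 of 61 T-arm groups and 15 of 30 others. Among the groups that entered the fit it did so in 48 of 52 and 13 of 20, against 18.3% of all tags and sums there. The lowest ratio of a T-arm group was 2.17 in E42, and the lowest of the others 1.31 in E86.

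For 5 groups (E1, E22, E37, E40 and E43) the 18 bases with their CCA stood in the RefSeq windows, at 14 positions in all. They held 54.1% of the member reads, most of it E1. The end of E1 was found at chr4:149380564-149380581 on the plus strand, in LOC120102367, a gene listed as protein-coding. Upstream of the 18 bases that window differed from the most abundant tag of E1 at 7 of 9 bases. None of the 14 positions matched the whole most abundant tag, the fewest differences being 3, in E22 and E40. E22 and E40 also overlap each other.
E22: aaggaatTgacggaagggcaccaCCA
E40: ttaaaggAattgacggaagggcaCCA
The 18 bases of E40 lie inside the tag of E22, 3 bases before its end, so the CCA of E40 is followed there by the CCA of E22. E22 had 27.5, 20.7 and 13.04 TPM in NAFLD replicates 1 to 3 and 7.42, 9.27 and 6.99 TPM in normal replicates 1 to 3. E40 had 11.6, 7.91 and 5.25 TPM in NAFLD replicates 1 to 3 and 2.19, 3.54 and 3.03 TPM in normal replicates 1 to 3. Both kept the 3 NAFLD libraries above the normal ones, with ratios of 2.58 and 2.82. E16 was the most abundant group after E8 without the T-arm pattern.
E16: tggattcAaaaatcccataaacaCCA
It had 49.6, 10.9 and 23.9 TPM in NAFLD replicates 1 to 3 and 10.8, 22.8 and 10.8 TPM in normal replicates 1 to 3. The conditions overlapped, with NAFLD replicate 2 at the level of normal replicates 1 and 3, and the log2 fold change of 0.92 was 0.03 above the median of all tags and sums. In DESeq2 it was -0.05, and within the set with more substitutions the ratio was 0.761, below 1.

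The member reads were longer in the NAFLD libraries. Their mean length was 27.2, 27.2 and 27.4 nt in the NAFLD and 26.7, 26.98 and 26.8 nt in the normal libraries, without overlap (difference of 0.428 nt). Tags became members mostly through reads of the NAFLD libraries. Lengths common there are thus favoured by the choice, and no test is given. NAFLD was also longer within each substitution set. Reads of 26 nt made up 12.5, 16.1 and 10.1% of the member reads in the NAFLD and 46.8, 27.1 and 43.9% in the normal libraries. The value of normal replicate 1, the library with the fewest member reads, had a 95% Wilson interval from 44.8 to 48.8%. Reads of 28 nt made up 28.1 ± 2.16% and 17.03 ± 3.44% (SD, n = 3 each), again without overlap. Within E1, however, the mean length was 27.4, 27.3 and 27.5 nt against 27.3, 27.3 and 27.4 nt, and within E2 27.7, 27.7 and 27.9 nt against 27.8, 27.6 and 27.7 nt, with the conditions overlapping in both. They also overlapped in E3, E4 and E7. E5 was longer in every NAFLD library, at 27.16, 27.23 and 27.43 nt against 26.94, 27.03 and 27.01 nt. E6, E8 and E9 were likewise longer without overlap, E6 by a few hundredths of a nt at most. The groups themselves differ in length. E1 and E4 had most reads at 27 nt (60.4% and 61.1%), E2 at 28 nt (53.2%), and E6 and E7 at 26 nt (98.1% and 97.3%).

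The make-up of the member reads also differed. E1 took 55.7, 53.6 and 53.98% of them in the NAFLD and 25.5, 39.4 and 25.4% in the normal libraries, without overlap (difference of 24.3 percentage points). The order was the same within each substitution set. E1 is the largest group by its mean level over all 6 libraries, which comes mostly from the NAFLD libraries. A larger share there is thus favoured by the choice, and no test is given. In normal replicate 1 the 95% Wilson interval ran from 23.8 to 27.3%. E8 took 1.10, 2.19 and 1.19% in the NAFLD and 17.5, 5.29 and 10.6% in the normal libraries, and E7 1.26, 3.17 and 1.78% and 4.01, 4.87 and 6.53%. Both were thus smaller parts of the NAFLD member reads, although their TPM was higher there. The shares of E3, at 4.23 ± 2.22% and 4.12 ± 1.88% (SD, n = 3 each), overlapped.

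The last A was set against reads of the same ends that lack it, which the rule does not take. Ends became groups through reads with the A, most of them from NAFLD libraries. A higher share with the A in NAFLD is therefore favoured by the choice, and no test is given. Among reads of 25 to 30 nt with the end of a group, with or without its last A, the share that carried the A was 87.5, 87.9 and 89.7% in the NAFLD and 56.2, 73.6 and 62.1% in the normal libraries. The conditions did not overlap (difference of 24.4 percentage points), with the same order within each substitution set. The interval for normal replicate 1 ran from 55.2 to 57.2%. Taken by class, the difference was far smaller. In the T-arm groups the share was 96.4, 99.03 and 98.9% in the NAFLD and 95.7, 97.5 and 90.4% in the normal libraries, and the conditions overlapped. In E1 it was 95.7, 98.9 and 98.8% and 94.6, 96.8 and 87.4%, also with overlap. In the other groups it was 39.9, 41.8 and 40.2% and 38.8, 37.2 and 39.5%, so most reads of those ends stopped at CC in every library, and the means differed by 2.15 percentage points without overlap. The T-arm groups had a larger part of the reads in the NAFLD libraries, as given above.

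Summed over the groups, the same 18-base ends had more short than long reads in all 6 libraries, and the ratio between the conditions was smaller there. Reads of 18 to 25 nt with these ends reached 18102, 11227 and 7268 TPM in the NAFLD and 8882, 4166 and 5254 TPM in the normal libraries, a ratio of 2.00, with NAFLD replicate 3 below normal replicate 1. Within the set with more substitutions it was 2.22 and within the other 2.56. The median ratio of single ends was 2.13 over 83 ends with more than 3 normal reads, and NAFLD lay above normal in every library for 26 of 91. With at least 30 short reads required this was 26 of 84 ends, against 14.3% of all ends of reads of this length with that minimum. With TMM factors the median was 1.33. E4 had 2359, 814 and 483 TPM of short reads in the NAFLD and 1056, 314 and 344 TPM in the normal libraries, a ratio of 2.13 beside 26.6 for its long reads. E1 had 819, 778 and 439 TPM and 55.8, 68.2 and 38.4 TPM, a ratio of 12.5. E1 and E2 had more long than short reads in all NAFLD libraries, whereas E4, E5 and E7 had more short reads in every library. Inside each library, the log2 ratio of long to short reads over the T-arm ends was -1.15, -1.29 and -0.37 in the NAFLD and -6.04, -2.09 and -4.84 in the normal libraries. The conditions did not overlap, and normal replicate 2 was again the normal library closest to the NAFLD ones. In E1, E2 and E3 taken singly they did overlap. The log2 ratio of E1 was 2.47, 1.62 and 2.73 in the NAFLD and -0.11, 2.55 and 0.70 in the normal libraries. The long reads in these ratios are the member reads, taken up for being higher in NAFLD, so no test is given. In all 3 ends normal replicate 2 lay above NAFLD replicate 2. Among short T-arm reads of single lengths, the ratio of means was 1.43 at 22 nt, 3.58 at 18 nt and 3.39 at 25 nt. At 18 nt the levels were 3342, 995 and 879 TPM against 1098, 156 and 204 TPM, with overlap, and the ratio was 1.93 without NAFLD replicate 1 and 9.65 without normal replicate 1. At 25 nt the levels were 631, 369 and 276 TPM against 101, 158 and 118 TPM, without overlap, and at 22 nt 1799.6, 1331 and 905 TPM against 1198, 647 and 971 TPM, with overlap.

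The minimum of 30 reads was a cut in a continuous range. The 47 member tags with 30 to 34 reads averaged 0.815 TPM in the NAFLD and 0.0920 TPM in the normal libraries. The 64 tags with 25 to 29 reads, which were left out, had 0.676 and 0.0930 TPM, and 14 of them had an end that no member has. At the lower edge, E91 was a single tag of 32 reads, all from NAFLD libraries, where it had 1.38, 0.510 and 0.846 TPM.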

How the data were processed

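Small RNA of 18 to 30 nt from the liver of 3 NAFLD and 3 normal rats had been gel-purified and sequenced. The authors discarded reads of low quality, with adapter contamination, without an insert, of poly A or shorter than 18 nt. They then collapsed identical reads to tags and deposited 1 count per tag and library, unnormalized and with no genome match at this step. The cleaning tool is not given in the sources used here. A log of read counts per cleaning step was also deposited, and the tag counts of each library summed to its clean reads. A FASTA-like copy of each tag list was not used.

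TPM followed the study's formula, count over clean reads times 1000000. Members and lists were chosen with earlier results of these data known. The whole table, with members summed by end, at least 15 reads in all and filterByExpr, was fitted in edgeR (version 4.0.16, R 4.3.3) by glmQLFit with glmQLFTest (library size equal to clean reads, Benjamini-Hochberg adjustment over 19287 tags and sums). Standard errors are the absolute log2 fold change over the root of the F statistic. DESeq2 1.42.0 and limma 3.58.1 were alternatives. The remaining calculations were done with scipy 1.17.1, numpy 2.4.6 and pandas 2.3.3 under Python 3.11.15. Libraries were divided by their substitution rate at base 4 of the most abundant tag.

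Named were the 12 end groups of highest mean TPM and, in each direction, the 3 others of smallest unadjusted p, since none passed the adjusted threshold. No tested group had a lower fitted level in NAFLD. E13, E16, E22, E23, E24, E28, E37, E40, E42, E45, E49, E50, E55, E59, E75, E78, E81, E86 and E91 are named outside this rule and were chosen after their values were seen. Matching used RefSeq windows (GRCr8), of which 33469 were searched. The T-arm pattern, the second motif, the bases at position 19 and the alternatives for short reads were added after the data were seen. miRNA calls, target predictions and qRT-PCR were not analysed here.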

Additional observations from a re-analysis of the deposited data

How the results depend on the processing

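The number of groups with an adjusted p under 0.05 was 0 in every fit tried: TMM factors, DESeq2, limma with either pseudocount, no filterByExpr, the replicate block, the substitution sets as a covariate, other groupings and minimums, merged ends and each library left out. The smallest adjusted p of a group was 0.0647, in edgeR with the substitution sets as a covariate. In the whole table, 6 tags or sums passed in DESeq2, 3 with that covariate and 0 in the other fits. The number of groups higher at an unadjusted p under 0.05, 52 of 72 (against 8.95% of the whole table), was 18 with TMM factors (against 2.27%) and 26 with DESeq2 (against 2.49%). It was 181 of 277 with each tag tested alone (against 9.48%) and 107 of 147 with groups by 22 bases (against 9.19%). With 30 reads required in the normal libraries it was 27 of 39 (against 9.31%). The number of features itself changed in each of these. Leaving out 1 library gave 33 to 72, the lowest without normal replicate 3 (against 3.05% of the whole table) and the highest without normal replicate 2 (against 20.2%). With the replicate block it was 48 (against 7.71%). The numbers share no stated source, and deviations from the condition means correlated at 0.75, 0.72 and -0.59 for numbers 1, 2 and 3. NAFLD replicate 3 correlated best with normal replicate 2, so the libraries were not taken as paired.

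The number of groups with NAFLD above normal in every library, 70 of 91, was 46 with TMM factors, 43 per reads of 26 to 30 nt, 150 of 205 by 22 bases, 126 of 199, 42 of 51 and 30 of 39 with minimums of 10 reads, 100 reads and 30 normal reads, and 72 to 78 with 1 library left out. Over the whole table the share was 18.3% in the main setting, 7.03% with TMM factors and 2.3% per reads of 26 to 30 nt. It was not taken for the other groupings, minimums and left-out libraries. The median log2 ratio of 1.64 was 0.80 per reads of 26 to 30 nt, 1.01 within the set with more substitutions, 0.84, 2.42 and 2.15 with those minimums, 2.70 with a pseudocount of 0.1, and 1.49 to 1.85 with 1 library left out. The median ratio of short reads, 2.13, was 1.33 with TMM factors and 1.63 to 2.92 with 1 library left out. The causes were not tested. With 1 library left out, the difference was 0.372 to 0.504 nt in mean length, 21.95 to 28.99 percentage points in the share of E1, 20.5 to 29.2 in the terminal A share and 2.36 to 3.38 in the log2 ratio of T-arm to other reads. With each tag counted once the difference in mean length was 0.105 nt in place of 0.428, and with groups by 22 bases the difference in the share of the largest group was 13.2 in place of 24.3 points. None of the 15 groups named by rule had a negative fold change in any fit. Of the others, E59 had -0.31 with TMM factors, -0.40 in DESeq2 and -0.26 without NAFLD replicate 1, E16 -0.05 in DESeq2, E45 -0.42 with the substitution sets as a covariate and E86 -0.04 without normal replicate 2. Counts in normal replicates 1 and 3, with 2394 and 2927 member reads, limit the ratios of rare groups.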

Other observations

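A single library dominated 1 end group, which was left out of the fit by the filter on low counts.
E24: gaagagtCagtcttctcaggacaCCA
E45: tgaagagtCaatcttctcaggacaCCA
E24 had 917 reads in NAFLD replicate 1, 0 and 4 in NAFLD replicates 2 and 3, and 0, 1 and 3 in the normal libraries. E45 shares its last 16 bases with E24, and E24 is E45 with A2G, counted from the first of the 18 bases. E45 had 3 reads in NAFLD replicate 1 but 67 and 122 in NAFLD replicates 2 and 3, and 8, 54 and 27 in the normal libraries. The library rich in the first end was thus the one poorest in the second. In short reads of 18 to 25 nt, E24 had 11.03, 0.510 and 0.423 TPM in the NAFLD libraries and 0, 0.253 and 0 TPM in the normal ones, and E45 had 5.78, 59.4 and 69.4 TPM and 78.2, 48.8 and 71.04 TPM. Both groups were singled out after their values were seen, and no test was made.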
